A study of Mus musculus with 40 samples.

Results

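Wild-type (WT) mouse cerebellum was compared between 12 and 19 months of age, with 5 bulk RNA-seq libraries at each age. The series holds 40 libraries of poly(A) RNA from whole cerebellum, 5 for each of 2 genotypes, WT and SCA6 84Q/+, at each of 4 ages, of which 3 and 6 months are the other pair. SCA6 84Q/+ mice carry an expanded CAG repeat knocked into 1 allele of Cacna1a, the gene of the P/Q-type calcium channel, and model spinocerebellar ataxia type 6. Neither WT group carried the repeat, the labels name age alone as treatment, and WT is the control genotype of the study. The labels give age and genotype for each cerebellum and neither sex nor strain. All genes with at least 1 CPM (read counts scaled to the library total) in every library of either WT group were tested, which kept 13243 of 21967 genes. The kept gene nearest to that limit was Prr7, whose lowest library in its better group was at 1.00 CPM, and the nearest gene left out, AC140190.2, was at 0.998 CPM.

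The cerebellar cortex holds granule cells, Purkinje cells, interneurons, Bergmann glia, oligodendrocytes and microglia, and the tissue is lined at the fourth ventricle by ciliated ependymal cells and by the choroid plexus, which secretes cerebrospinal fluid. Ageing brain is known for activation of microglia, the resident phagocytes, with complement, lysosomal and interferon-induced transcripts among the usual readouts. In such bulk tissue, fewer cells of a type and less RNA per cell cannot be told apart.

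At 19 months, 117 genes (0.883% of those tested) passed an adjusted p of 0.05 in edgeR's quasi-likelihood test with a log2 fold change of at least 0.3 in either direction. Of these, 32 (0.242%) rose and 85 (0.642%) fell. The 5 libraries of each age did not overlap for 30 of the risen genes (2.26% of all genes tested lay above at 19 months without overlap) and 78 of the fallen genes (3.56% of all lay below). The risen genes included microglial and innate immune genes (Ctss, hexb, C1qc, Ccl6, Ccl12), interferon-induced genes (Irgm1, Nmi, Psme1) and short mitochondrial and redox genes (Cox8a, Surf1, Gpx4). Of these, Ccl6 and Ccl12 passed the filter on CPM only through the 19-month libraries. The fallen genes included 12 genes of motile cilia, epithelial genes of choroid plexus type (F5, Prlr, Trpv4), and long transcripts for matrix, adhesion, motor and signalling proteins (Tnr, Plxna4, Dync1h1, Grin2a, Itpr1). Changes were mostly modest: the median log2 fold change was 0.41 among risen and -0.40 among fallen genes, with extremes of 1.82 (Glra3) and -1.07 (Slc2a13).

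The adjusted p-values lay close to the limit, from 0.0217 for Tnr to 0.0495, and the count rested on single libraries. With 1 library left out, it ran from 0 (without 19-month replicate 1, 3 or 5) through 1 (without 12-month replicate 3), 2 (without 12-month replicate 4), 11 (without 19-month replicate 2), 16 (without 19-month replicate 4), 28 (without 12-month replicate 1) and 49 (without 12-month replicate 2) to 570 (without 12-month replicate 5). Each of the 117 genes kept its direction in all of these fits, which share most libraries with the fit that chose the genes. A further 67 genes had an adjusted p under 0.05 with a smaller fold, and 3206 genes (24.2%) had an unadjusted p under 0.05, of which 1466 (11.1%) were higher and 1740 (13.1%) lower at 19 months.

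Several libraries stood apart before any test. Library totals were 51469700 to 71105200 counts at 12 months and 38782900 to 62779800 at 19 months, rounded to 6 digits. The first number of the library ID, whose meaning the labels do not give, was 2, 3, 3, 3 and 4 in the 12-month libraries and 9, 10, 10, 12 and 12 in the 19-month libraries, so it shares no value between ages and its part cannot be told apart from age. In 19-month replicates 4 and 5, both of ID number 12, several hindbrain genes were far above the other 8 libraries. Hoxb5, a hindbrain patterning gene, was at 5.40 and 4.42 CPM there against 0.0188 to 0.270 CPM in the other 8, and Slc5a7, the choline transporter of cholinergic neurons, was at 13.4 and 6.15 CPM against 0.228 to 0.712 CPM. Other genes of the brainstem list did not follow: Tph2, of serotonergic neurons, was at 1.26 CPM in both against 0.655 to 1.41 CPM, Slc6a2 and Dbh, of noradrenergic neurons, overlapped with the other 8, and Hoxa3 and Hoxa5 were at 0 throughout. Without these libraries no gene passed the test at 3 against 5 (2222 genes had an unadjusted p under 0.05). The 117 genes, chosen with these libraries included, kept their direction and an unadjusted p under 0.05, with medians of 0.40 and -0.38. In 12-month replicates 2, 3 and 4, all of ID number 3, genes of protein folding were above those of replicates 1 and 5. Without those 3 libraries, no gene passed the test (1161 genes had an unadjusted p under 0.05). The 117 genes, chosen with those libraries included, again kept their direction, with medians of 0.33 and -0.33. Y-linked transcripts were near 0 in 12-month replicate 1 (Ddx3y 0.690 CPM) and between 144 and 153 CPM for Ddx3y in the other 9. In SCA6 84Q/+ they were near 0 in 4 of 5 libraries at 12 months and 2 of 5 at 19 months.

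**Figure D1:**
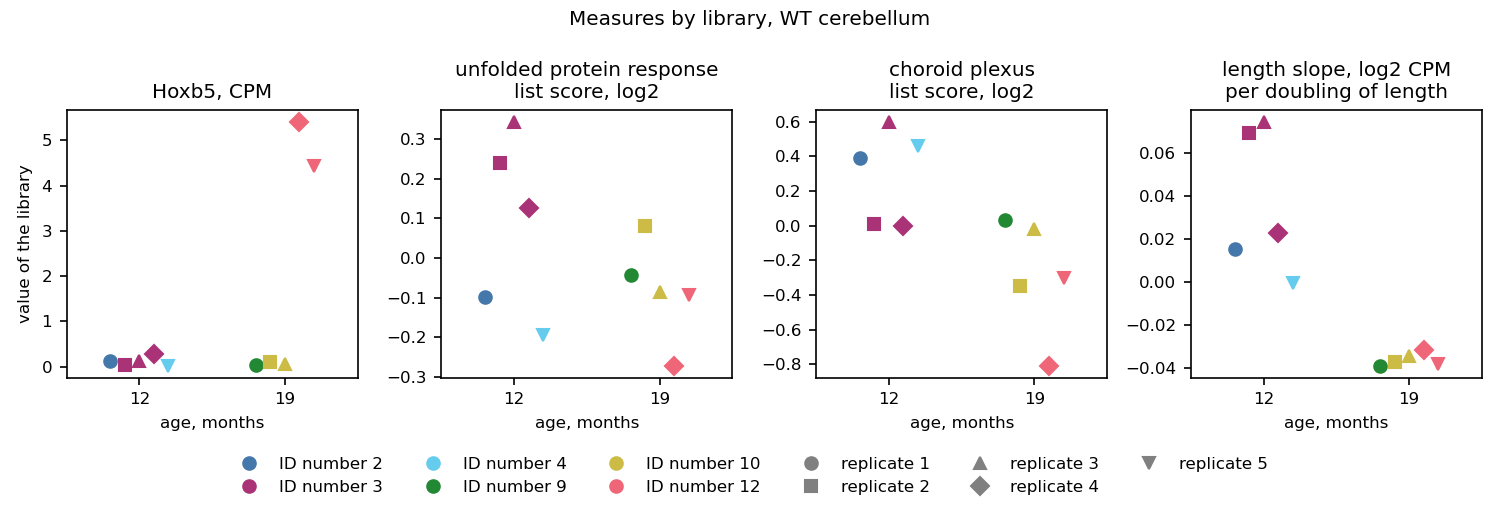
Each point is 1 WT library, coloured by the first number of its library ID and shaped by replicate, at 12 or 19 months. The panels show Hoxb5 in CPM, the mean log2 level of the unfolded protein response list and of the choroid plexus list relative to the 10 WT libraries, and the slope of log2 CPM on log2 exonic length. Hoxb5 is high in 19-month replicates 4 and 5, the folding list is high in 12-month replicates 2 to 4, and the length slopes of the ages do not overlap.

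Cathepsin S (Ctss, chr3:95526786-95556403 on GRCm38), a lysosomal protease of microglia and other myeloid cells, had the smallest adjusted p among members of the microglia list. Its promoter is shown because Ctss was a called member of the microglia list and because it holds an interferon-stimulated response element core, GAAA, any 2 bases and GAAA, the letters bound by interferon regulatory factors. The sequences are RefSeq's on GRCm38.p6, given 5′ to 3′ on the strand of the gene, with the matched letters in capitals. The Ctss stretch covers the 250 bases before the start site, at chr3:95526536-95526785 (+), and those of Irgm1, at chr11:48871431-48871460 (-), and Psme1, at chr14:55578493-55578522 (+), are windows of 30 bases round the match.
Ctss: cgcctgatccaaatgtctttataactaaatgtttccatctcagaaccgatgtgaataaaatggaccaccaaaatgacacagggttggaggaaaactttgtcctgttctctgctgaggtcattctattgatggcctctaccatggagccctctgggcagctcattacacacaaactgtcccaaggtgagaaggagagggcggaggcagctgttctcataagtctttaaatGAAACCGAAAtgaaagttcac
Irgm1: cctgtttcaaGAAATAGAAACCGAAActga
Psme1: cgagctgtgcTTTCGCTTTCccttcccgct
Both strands were searched. In Irgm1 2 matches overlap, and in Psme1 the match is on the opposite strand and begins 9 bases after the start site. Of the 32 risen genes, 26 had a promoter in the table, and these 3 were the ones that held the core, in 3 of 31 promoters (9.68%). The core was in 2 of 86 promoters of the fallen genes (2.33%), in 14 of 27 of the interferon response list (51.9%) and in 3.44% of all 32851 promoters. A match describes letters and does not show binding.

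Ctss stood at 64.98, 58.5, 55.5, 66.2 and 62.3 CPM in the 5 libraries at 12 months and 117, 74.5, 85.5, 81.8 and 93.3 CPM at 19 months. Every 19-month library was above every 12-month library, and the log2 fold change was 0.56 ± 0.10 (SE, adjusted p = 0.0403, edgeR). It was at 39.9 ± 6.16 CPM (SD, n = 5) at 3 months and 38.2 ± 5.29 CPM at 6 months, so the level was about the same over the first pair of ages and higher at each later one. The value was 0.59 without the libraries of ID number 12 and 0.51 without those of ID number 3. In SCA6 84Q/+ cerebellum, whose 10 libraries at 12 and 19 months are separate from the WT ones, the log2 fold change of Ctss was 0.33 ± 0.17.

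The complement gene C1qc, which encodes a chain of the initiator C1q, was at 12.9, 9.91, 9.92, 12.6 and 9.57 CPM in the 5 libraries at 12 months and 22.5, 17.7, 15.6, 13.9 and 14.5 CPM at 19 months. The groups did not overlap, with a log2 fold change of 0.62 ± 0.13 (adjusted p = 0.0483). In SCA6 84Q/+ it was 0.56 ± 0.12, about as large as in WT. The chemokine Ccl6 was at 1.26, 0.887, 1.04, 1.35 and 1.37 at 12 months and 3.095, 1.57, 2.08, 1.83 and 2.23 at 19 months (CPM), and the chemokine Ccl12 was at 0.735, 0.5795, 0.564, 0.886 and 0.602 at 12 months and 1.09, 1.25, 1.32, 1.25 and 1.02 at 19 months (CPM). Both rose at low levels, by 0.87 ± 0.19 and 0.83 ± 0.16 on the log2 scale. At 12 months Ccl12 was under 1 CPM in every library and Ccl6 in 1 library. Both therefore passed the filter only through the 19-month libraries, where they are high, which favours a rise. The lysosomal hydrolase subunit hexb (so spelled in the table) ranged over 58.7 to 65.4 CPM at 12 months and 66.04 to 87.9 CPM at 19 months, with a log2 fold change of 0.36 ± 0.07. The cathepsin inhibitor Cst3 ranged over 115 to 156 CPM at 12 months and 161 to 205 CPM at 19 months and rose by 0.47 ± 0.09. The immunoglobulin-type receptor gene Cd300d (0.70) and the inflammasome sensor gene Naip5 (0.55) also rose, and neither overlapped between ages.

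Across the microglia list, 2 of 15 tested members (Ctss and hexb) rose (0.242% of all genes tested did) and none fell, 13 of 15 had a positive log2 fold change, and the median was 0.20 against 0.00 over all genes tested. The complement list had 1 riser (C1qc) among 10 tested members and a median of 0.45. The list of disease-associated microglia had 1 among 20, Ccl6, which passed the filter only through the 19-month libraries. Its median was 0.30 and became 0.53 without the libraries of ID number 12. In that list Lyz2, the lysozyme of myeloid cells, had the fold change 1.00 ± 0.31 and Tyrobp, a myeloid signalling adaptor, 0.61 ± 0.14, and neither passed the adjusted test. The reactive astrocyte list had no called member among 10 (median 0.24). Its most abundant member, Gfap, was at 202, 145, 177, 189.97 and 144 at 12 months and 297, 244, 206, 197 and 215 at 19 months (CPM), and the ages overlapped. In the complement, disease-associated microglia and reactive astrocyte lists, 19-month replicate 1 was the highest of the 10 libraries. Markers of lymphocytes were at or near 0: none of 16 in the table passed the filter, and together they summed to at most 2.91 CPM in a 12-month library and 4.41 CPM in a 19-month library.

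**Figure D2:**
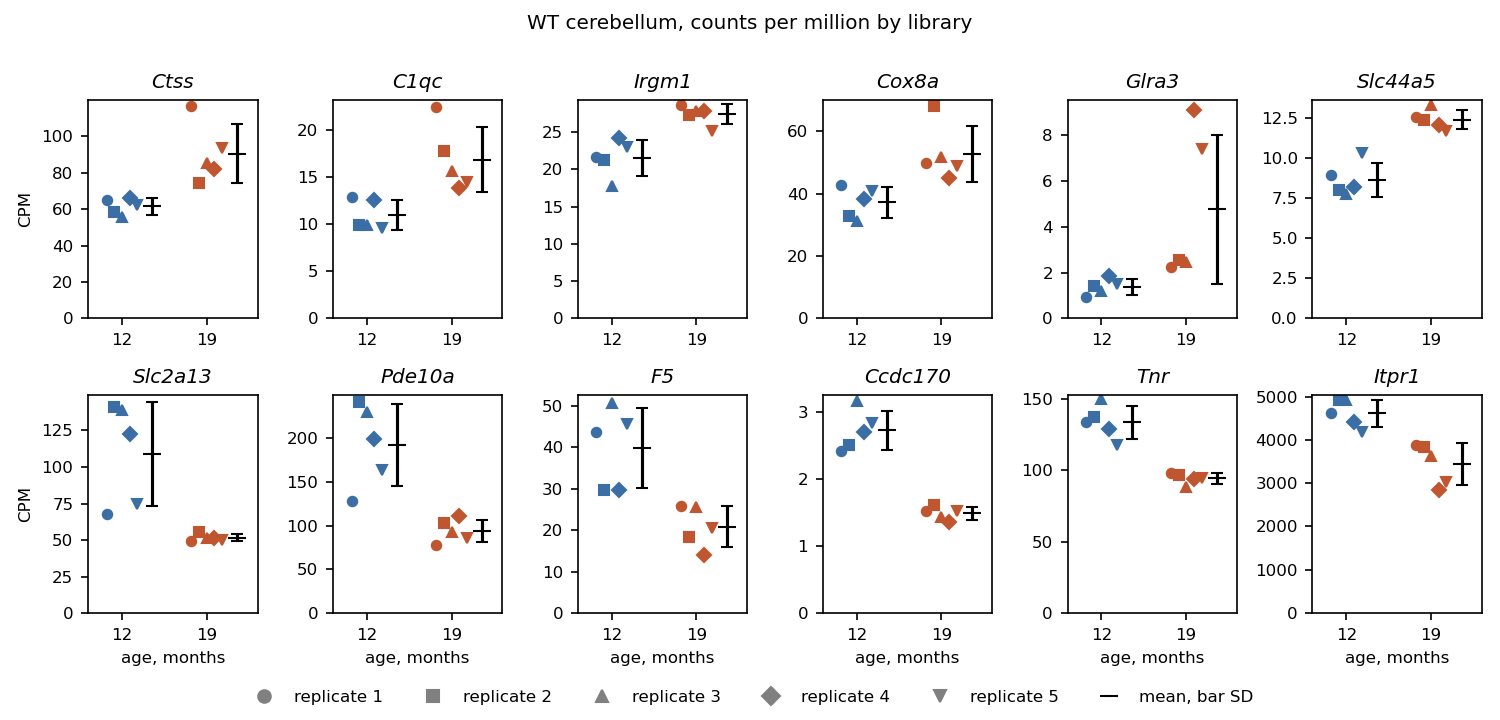
CPM of 12 genes in each of the 5 WT libraries at 12 and at 19 months, with the mean and SD beside the points. The 12 genes were picked from the called genes, and their 12-month and 19-month points do not overlap. The same held for 30 of 32 risen and 78 of 85 fallen genes (2.26% of all genes tested lay above and 3.56% below). Glra3 at 19 months splits into 3 libraries at 2.23 to 2.56 CPM and 2 at 7.42 and 9.12 CPM. Slc2a13 at 12 months splits into 3 libraries at 123 to 141 CPM and 2 at 67.6 and 74.7 CPM.

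Irgm1, an immunity-related GTPase induced by interferon, was at 21.7, 21.3, 17.7, 24.1 and 22.96 CPM in the 5 libraries at 12 months and 28.6, 27.3, 27.8, 27.9 and 25.1 CPM at 19 months. Its groups did not overlap and its log2 fold change was 0.35 ± 0.08 (adjusted p = 0.0483). Nmi, a STAT-interacting protein, ranged over 7.38 to 8.896 CPM at 12 months and 9.58 to 11.6 CPM at 19 months and rose by 0.37 ± 0.08. Psme1, the alpha subunit of the proteasome activator PA28, ranged over 13.8 to 18.1 CPM at 12 months and 18.7 to 24.7 CPM at 19 months and rose by 0.44 ± 0.09. These 3 genes were grouped after their values were seen.

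None of the 31 tested members of the interferon response list passed the adjusted test. Their log2 fold changes were positive for 30 of 31 and the median was 0.27. In the list 15 had an unadjusted p under 0.05, all of them higher at 19 months (11.1% of all genes tested). Ifitm3, an antiviral membrane protein, had the value 0.41 ± 0.10 and Ifit1, an RNA-binding antiviral protein, 0.47 ± 0.16. In the list of class I antigen presentation, which shares its regulators with that response, 0 of 15 were called, 15 of 15 were positive and the median was 0.31. B2m, the invariant light chain of class I molecules, was at 143, 125, 111, 125 and 130.4 at 12 months and 187, 151, 171, 132 and 153 at 19 months (CPM), with overlap between ages. Over the 4 WT ages, the list score (the mean log2 level relative to the 10 WT libraries at 12 and 19 months) of the interferon response ran from -1.10 to -0.79 at 3 months, -0.98 to -0.65 at 6 months, -0.36 to 0.14 at 12 months and 0.00 to 0.34 at 19 months. The first pair of ages lay wholly below the last pair, while neighbours within each pair overlapped. In SCA6 84Q/+ the same lists had medians of -0.41 and -0.15. There, 12-month replicate 2 stood far above all others in the interferon response, where its list score of 1.92 compared with -0.27 to 0.05 in the 4 further 12-month libraries and -0.06 to 0.38 at 19 months. The median list score of the interferon response in SCA6 84Q/+ was -0.17 at 12 months and 0.19 at 19 months. The part of replicate 2 in the negative medians of the 2 lists was not tested.

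A group of 5 small transcripts of mitochondria and redox defence, put together after their values were seen, rose. All 5 lay without overlap between ages, as did 30 of the 32 risen genes (2.26% of all genes tested lay above without overlap). Gpx4, the glutathione peroxidase that reduces lipid peroxides, was at 159, 144, 145, 156 and 154 CPM in the 5 libraries at 12 months and 200.1, 185, 177, 190.1 and 185 CPM at 19 months. The lowest 19-month library was above the highest 12-month library, and the log2 fold change was 0.32 ± 0.05 (adjusted p = 0.0240). Cox8a, a subunit of cytochrome c oxidase, was at 42.7, 32.9, 31.1, 38.4 and 40.9 at 12 months and 49.9, 68.1, 51.8, 45.1 and 48.9 at 19 months (CPM), a log2 fold change of 0.51 ± 0.11 with replicate 2 well above the rest at 19 months. Surf1, which assists assembly of that complex, rose by 0.31 ± 0.06, Atpif1, the inhibitor of ATP synthase, by 0.32 ± 0.07 (0.21 with length offsets), and Selm, a selenoprotein of the endoplasmic reticulum, by 0.45 ± 0.07. In the list of oxidative phosphorylation, 1 of 71 tested members (Cox8a) was called (0.242% of all genes tested rose). There 67 were positive (6696 of all 13243 genes tested were) and the median was 0.13. No cytosolic ribosomal protein gene was called among 75, 74 were positive and the median was 0.22. Of them 62 had an unadjusted p under 0.05 (11.1% of all genes tested had one and were higher). With offsets that remove a trend with exonic length, these medians were 0.05 and 0.13.

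Glra3, an alpha subunit of the glycine receptor, had the highest log2 fold change, 1.82 ± 0.40 (adjusted p = 0.0492). It was at 0.915, 1.41, 1.21, 1.85 and 1.52 CPM in the 5 libraries at 12 months and 2.23, 2.56, 2.49, 9.12 and 7.42 CPM at 19 months. With 1 library under 1 CPM at 12 months, it passed the filter only through the 19-month libraries, which favours a rise. The highest values were in replicates 4 and 5, the libraries with high Hoxb5 and Slc5a7, and the log2 fold change without them was 0.83. Glra3 in SCA6 84Q/+ was 1.48 ± 0.42, at 0.976 to 1.95 CPM at 12 months and 1.51 to 7.16 CPM at 19 months. There too 2 of the 19-month libraries, replicates 3 and 4 of ID number 12, had high Hoxb5, at 1.36 and 4.25 CPM against at most 0.113 CPM in the other 3. Of the other genes, Slc44a5, a choline transporter-like protein, was at 8.91, 7.97, 7.75, 8.202 and 10.3 at 12 months and 12.5, 12.4, 13.3, 12.1 and 11.7 at 19 months (CPM), a log2 fold change of 0.53 ± 0.09, and remained called with length offsets (0.57). Ostn, a secreted natriuretic-type peptide, rose by 0.84 ± 0.17 from a mean of 3.92 ± 0.685 to 6.97 ± 1.43 CPM, with overlap of 1 library, and had a near-equal value of 0.80 ± 0.14 in SCA6 84Q/+. Cda, a cytidine deaminase, rose by 0.71 ± 0.15 and Ier3, an immediate early gene product, by 0.53 ± 0.12.

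A group of 12 genes of motile cilia fell. Cilia on ependymal cells move cerebrospinal fluid and are built on an axoneme of microtubules with dynein arms. Of 61 tested axonemal and ciliary genes, a list drawn up after the values were seen, 11 fell (0.642% of all genes tested did) and none rose. In that list 51 were below 0 (6547 of all 13243 genes tested were), and the median log2 fold change was -0.37. The mean list score in WT was -0.19 at 3 months, -0.19 at 6 months, 0.17 at 12 months and -0.17 at 19 months. The 12-month mean was thus the highest, with 19 months near the earlier ages. Ccdc170, a coiled-coil protein of microtubules, was at 2.42, 2.499, 3.16, 2.696 and 2.84 CPM in the 5 libraries at 12 months and 1.52, 1.605, 1.43, 1.36 and 1.52 CPM at 19 months. No 19-month library reached the lowest 12-month library, and the log2 fold change was -0.86 ± 0.11 (adjusted p = 0.0240). Dnali1, a light intermediate chain of axonemal dynein, was at 3.32, 2.63, 3.33, 3.47 and 3.48 at 12 months and 2.16, 1.78, 1.87, 1.33 and 2.08 at 19 months (CPM) and fell, with a log2 fold change of -0.81 ± 0.14. The dynein heavy chain genes Dnah10 (-0.71) and Dnah6 (-0.52) fell, as did Cfap44 (-0.66), Cfap57 (-0.63), Armc4 (-0.62, dynein docking), Maats1 (-0.60), Wdr78 (-0.38, a dynein intermediate chain), Kif9 (-0.49, a ciliary kinesin) and Stk36 (-0.44, a kinase needed for the central pair). Tmem212, an ependymal membrane protein, was at 5.33, 3.86, 5.76, 6.59 and 5.06 at 12 months and 3.07, 3.03, 2.78, 3.34 and 3.45 at 19 months (CPM), with a log2 fold change of -0.75 ± 0.14, and was the 1 called member of 8 tested in the ependymal list. Together these 12 genes had values from -0.86 to -0.38, and 11 of 12 did not overlap between ages, near the share of all fallen genes (78 of 85; 3.56% of all genes tested lay below without overlap). Their exonic lengths ran from 716 bases (Tmem212) to 16086 bases (Dnah10), with a median of 4412.5 bases against 4700 over all genes tested. In SCA6 84Q/+ the same 12, which were chosen by their WT folds, ranged from -0.35 to 0.16 with a median of -0.04.

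The choroid plexus list lay in the same direction. All 16 members were below 0 (6547 of all 13243 genes tested were), with a median log2 fold change of -0.55. In the list 14 had an unadjusted p under 0.05 (13.1% of all genes tested had one and were lower), and 2 were called (0.642% of all fell). F5, coagulation factor V, was at 43.8, 29.6, 50.8, 29.7 and 45.6 CPM in the 5 libraries at 12 months and 25.95, 18.3, 25.6, 14.04 and 20.5 CPM at 19 months. Replicates 2 and 4 at 12 months were close to the highest 19-month libraries without overlap, and the log2 fold change was -0.93 ± 0.18 (adjusted p = 0.0443). Prlr, the prolactin receptor, was at 4.94, 3.44, 5.45, 3.10 and 4.98 at 12 months and 2.46, 1.99, 3.08, 1.97 and 2.73 at 19 months (CPM), a log2 fold change of -0.83 ± 0.18. Kl, the Klotho protein, had -0.80 ± 0.19 and did not pass the adjusted test, and Ttr, transthyretin, the most abundant member, had -0.19 ± 0.16. A further 3 fallen genes are known from this epithelium among other tissues: the calcium channel gene Trpv4 (13.7 to 22.3 CPM at 12 months and 7.04 to 11.6 CPM at 19 months, log2 fold change -0.81 ± 0.15), Ace, angiotensin-converting enzyme (-0.56 ± 0.12, with overlap), and Abca4, a lipid transporter (-0.71 ± 0.16). Dsp, desmoplakin of epithelial junctions, fell too (-0.95 ± 0.20). The score of the choroid plexus list ran from -0.00 to 0.59 in the 12-month libraries and from -0.81 to 0.03 in the 19-month libraries, with replicate 4 at 19 months the lowest. It ran from -1.57 to -0.03 in WT at 3 months and from -4.96 to 0.01 at 6 months. The median scores at 3, 6, 12 and 19 months were -0.18, -0.06, 0.39 and -0.30, so 12 months was the highest age. The median was -0.41 without the libraries of ID number 12. In SCA6 84Q/+ the list had a median of -0.09. With each library's choroid plexus score as a covariate, 0 genes were called (1354 had an unadjusted p under 0.05). That score was taken from the same libraries, with F5 and Prlr in its list, and its values barely overlap between the ages. The fit therefore takes out much of the age difference itself and cannot decide the part of the choroid plexus.

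**Figure D3:**
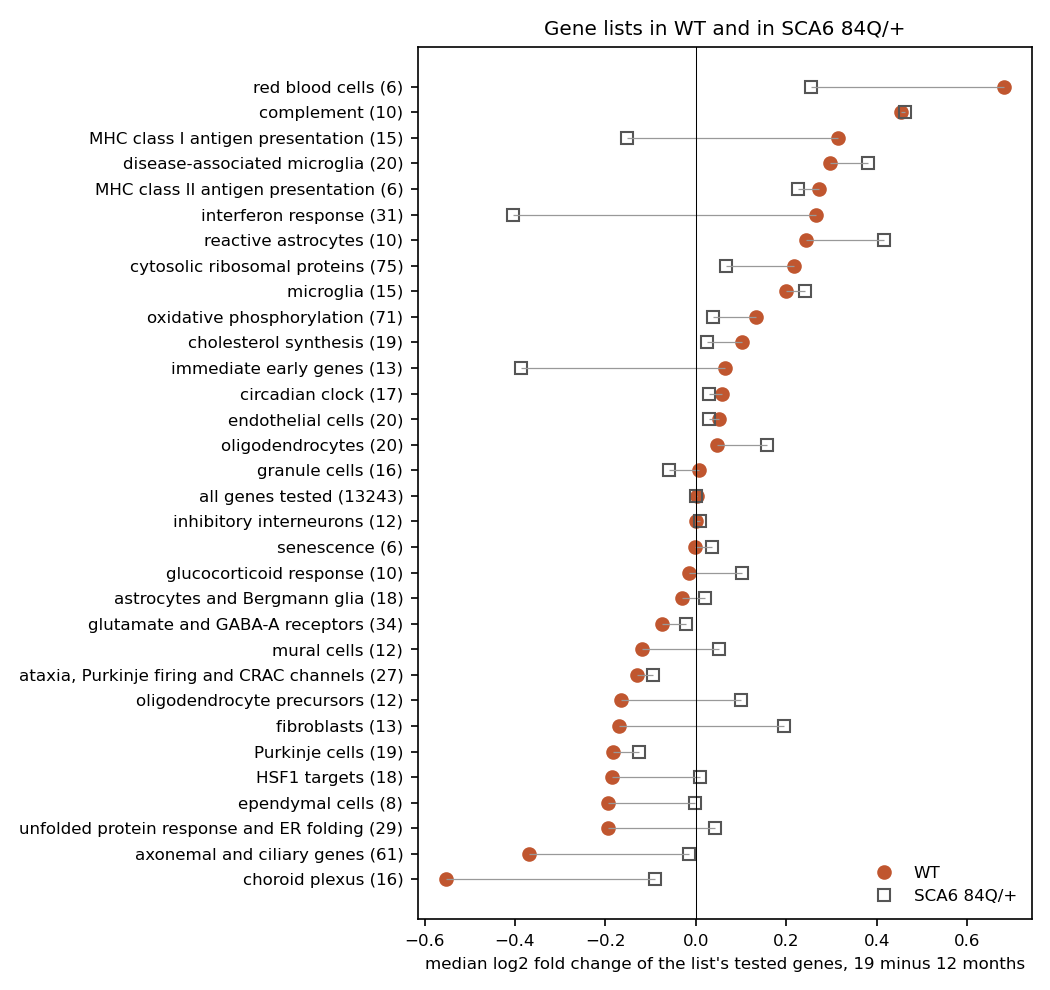
Median log2 fold change (19 minus 12 months) of each gene list in WT (filled circles) and in SCA6 84Q/+ (open squares), with the number of genes tested in WT in brackets. In WT the choroid plexus list is lowest at -0.55 and the complement list is at 0.45 in WT and 0.46 in SCA6 84Q/+, while the interferon response list has opposite signs. The SCA6 84Q/+ interferon value includes 12-month replicate 2, whose list score of 1.92 stood far above all others. The part of that library was not tested.

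Among neuronal and matrix genes, Tnr had the smallest adjusted p of all. Tnr encodes tenascin-R, a matrix protein of perineuronal nets made by oligodendrocyte lineage cells. It was at 134, 138, 149.6, 129 and 117 CPM in the 5 libraries at 12 months and 98.4, 96.8, 88.5, 93.7 and 94.3 CPM at 19 months. The groups did not overlap, with a gap from 98.4 to 117 CPM, and the log2 fold change was -0.49 ± 0.06 (adjusted p = 0.0217). It was at 129 ± 7.17 CPM at 3 months and 114 ± 11.1 CPM at 6 months. In SCA6 84Q/+ it was -0.08 ± 0.06, and its interaction of genotype and age had the smallest p among genes that passed the WT filter (9.19e-05, adjusted p = 0.712, edgeR). Tnr was the 1 called gene of 12 tested in the oligodendrocyte precursor list.

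Other genes of adhesion and guidance fell. Plxna4, a semaphorin receptor, was at 97.9, 95.6, 99.5, 86.6 and 86.1 at 12 months and 70.2, 70.7, 71.4, 67.3 and 75.4 at 19 months (CPM), a log2 fold change of -0.38 ± 0.05. Dab1, the adaptor that relays reelin signals, ranged over 126 to 153 CPM at 12 months and 94.1 to 113 CPM at 19 months, with -0.40 ± 0.06. Megf10, a glial engulfment receptor, ranged over 96.4 to 116 CPM at 12 months and 75.5 to 84.3 CPM at 19 months, with -0.36 ± 0.06, and Cgnl1, paracingulin of cell junctions, over 88.5 to 108 CPM at 12 months and 61.0 to 75.8 CPM at 19 months, with -0.45 ± 0.07. The laminin chains Lamb1 (-0.42) and Lamc1 (-0.39), the contactin Cntn3 (-0.33), Cntnap5b (-0.37), Nfasc (-0.32, neurofascin of the axon initial segment) and Ncam1 (-0.31, the neural cell adhesion molecule) were also lower. Ncam1 was at -0.15 without the libraries of ID number 3, and Nfasc at -0.19 with length offsets. Cntnap5b had the same value of -0.37 in SCA6 84Q/+.

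Slc2a13, a proton-coupled myo-inositol transporter, had the lowest log2 fold change. It was at 67.6, 141, 139, 123 and 74.7 CPM in the 5 libraries at 12 months and 49.2, 55.2, 51.6, 51.7 and 50.1 CPM at 19 months. All 19-month libraries were below the 12-month ones, but at 12 months the 3 libraries of ID number 3 were at 123 to 141 CPM and the other 2 were at 67.6 and 74.7 CPM. The value was -1.07 ± 0.18 (adjusted p = 0.0372) with all libraries and -0.46 without those 3. Pde10a, a phosphodiesterase of cAMP and cGMP, was at 129, 241, 229.9, 199 and 164 at 12 months and 78.04, 103, 93.04, 111 and 86.1 at 19 months (CPM), with -1.02 ± 0.15, and -0.63 without the libraries of ID number 3. Syne2, the nuclear envelope protein nesprin-2, was at 89.9, 132, 133, 114 and 76.9 at 12 months and 61.5, 73.4, 67.7, 57.1 and 70.2 at 19 months (CPM), with -0.72 ± 0.13, and -0.33 without them. Atxn1 changed likewise from -0.46 to -0.22 and Grin2a from -0.56 to -0.33, as did Macf1 from -0.36 to -0.22 and Trio from -0.35 to -0.20.

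Genes of ion channels, receptors and ataxias were measured in 2 lists. In the list of ataxia, Purkinje firing and store-operated calcium channels, 1 of 27 tested genes fell (0.642% of all did) and none rose. There 24 were below 0 and the median was -0.13. The fallen gene was Itpr1, the inositol trisphosphate receptor of the Purkinje cell endoplasmic reticulum, also the 1 called member of 19 in the Purkinje list. It was at 4611, 4922, 4922, 4415 and 4193 CPM in the 5 libraries at 12 months and 3884, 3837, 3628, 2841 and 3038 CPM at 19 months. The lowest values were in 19-month replicates 4 and 5, and the log2 fold change was -0.41 ± 0.09 (adjusted p = 0.0480), against -0.28 without them and -0.25 with length offsets (adjusted p = 0.159). The Purkinje list as a whole had a median of -0.18 that became -0.03 without those libraries. Cacna1a, which carries the repeat in SCA6 84Q/+ mice, was at 369, 433, 418, 348 and 359 at 12 months and 324, 360.5, 358, 374 and 331 at 19 months (CPM), with overlap and a log2 fold change of -0.13 ± 0.07 that did not pass the test. Of 34 glutamate and GABA-A receptor genes, 1 fell, Grin2a, the GluN2A subunit of NMDA receptors, at 106, 144, 129, 123 and 97.8 at 12 months and 74.8, 88.1, 83.98, 76.7 and 80.8 at 19 months (CPM), with -0.56 ± 0.09. Atxn1, the gene of spinocerebellar ataxia type 1, fell by 0.46 ± 0.09 on the log2 scale. Among granule cell (16 tested), inhibitory interneuron (12), oligodendrocyte (20) and endothelial (20) markers, 0 genes were called and medians lay between 0.00 and 0.05. Mural cell (12 tested) and fibroblast (13) lists, also with 0 called, had medians of -0.12 and -0.17.

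The genes of protein folding had no call and moved with the ID number. The 29 tested genes of the unfolded protein response and of folding in the endoplasmic reticulum had a median of -0.20, with 24 below 0, and 18 targets of heat shock factor HSF1 had a median of -0.19. Hspa5, the chaperone BiP, was at 238, 425, 505, 330.01 and 215 CPM in the 5 libraries at 12 months and 259, 316, 243, 195 and 245 CPM at 19 months, and Xbp1, a transcription factor of that response, was at 80.4, 132, 141, 95.6 and 68.6 at 12 months and 78.4, 98.3, 91.3, 65.7 and 84.9 at 19 months (CPM). For both, replicates 2 to 4 at 12 months were higher than replicates 1 and 5, which lay within the 19-month range. Without the libraries of ID number 3 the list medians were 0.05 and 0.04, so their signs turned. The 1 SCA6 84Q/+ library of ID number 3 at 12 months (replicate 5) scored 0.26 on this list, with the remaining 4 between -0.15 and -0.11. ER stress elements (CCAAT, any 9 bases, CCACG, on either strand) stood in 9 of 25 promoters of the response list, Hspa5 and Calr among them, against 0.119% of all promoters. The 18 genes taken from the study's text, most of them named there from a contrast of genotypes at 6 months, had 0 called and a median of -0.26. Hsp90b1, the chaperone GRP94, was among them, at 433, 714, 757, 701 and 441 at 12 months and 468, 537, 445, 383 and 449 at 19 months (CPM).

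Other lists had no called gene. The cholesterol synthesis list (19 tested) had a median of 0.10, the circadian clock list (17) of 0.06, the immediate early genes (13) of 0.07, the glucocorticoid response (10) of -0.01, the senescence list (6) of -0.00, class II antigen presentation (6) of 0.27, and astrocytes with Bergmann glia (18) of -0.03. The ependymal list with its 1 called gene had a median of -0.19. Red blood cell genes (6 tested, with the globins among them) were all above 0 with a median of 0.68, and their sum reached at most 227 CPM in a 12-month library and 469 CPM in a 19-month library. Their part in the other results was not tested. Only 2 of the 14 brainstem and deep nuclear genes passed the filter, Slc17a6 (0.38) and Sncg (0.94), with a median of 0.66 that turned to -0.24 without the libraries of ID number 12 (Slc17a6 -0.32, Sncg -0.15). The 4 Y-linked genes had a median of 0.31, with the 12-month replicate described above near 0.

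Transcript length ran through the result. Exonic length, the union of annotated exons in GENCODE M21, was available for 28 of 32 risen, 83 of 85 fallen and 12567 of all genes tested. Its median was 1774 bases for risen genes, 10800 bases for fallen genes and 4700 bases over all. Of the fallen genes, 60 were in the longest of 5 equal bins of all genes, and of the risen genes 20 were in the shortest bin. Across genes, which are not independent replicates, log2 fold change and log2 length had a Pearson r of -0.38 and a Spearman rho of -0.43. The slope of log2 CPM on log2 length was -0.00 to 0.07 in the 12-month libraries and -0.04 to -0.03 in the 19-month libraries, with no overlap. In SCA6 84Q/+ the coefficients were -0.24 and -0.30. With offsets that remove each library's trend with length, 10 genes were called: Tnr, Ccdc170, Cgnl1, Dab1, Dnali1, Megf10, Pde10a and Tmem212 fell, and Slc44a5 and Synpr, a synaptic vesicle protein, rose. All 111 called genes with a length, chosen on the same libraries, kept their direction there. Under these offsets Ctss was at 0.45, F5 at -0.88 and Ccdc170 at -0.89, while Macf1, the cytoskeletal crosslinker with 31402 exonic bases, was at -0.12 instead of -0.36 and Kalrn, a guanine exchange factor of synapses, at -0.12 instead of -0.32. The dynein motor gene Dync1h1 was at -0.25 instead of -0.39, and Trio, another exchange factor, at -0.15 instead of -0.35. With the length slope of each library as a covariate instead, whose values do not overlap between the ages, no gene was called (607 had an unadjusted p under 0.05).

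**Figure D4:**
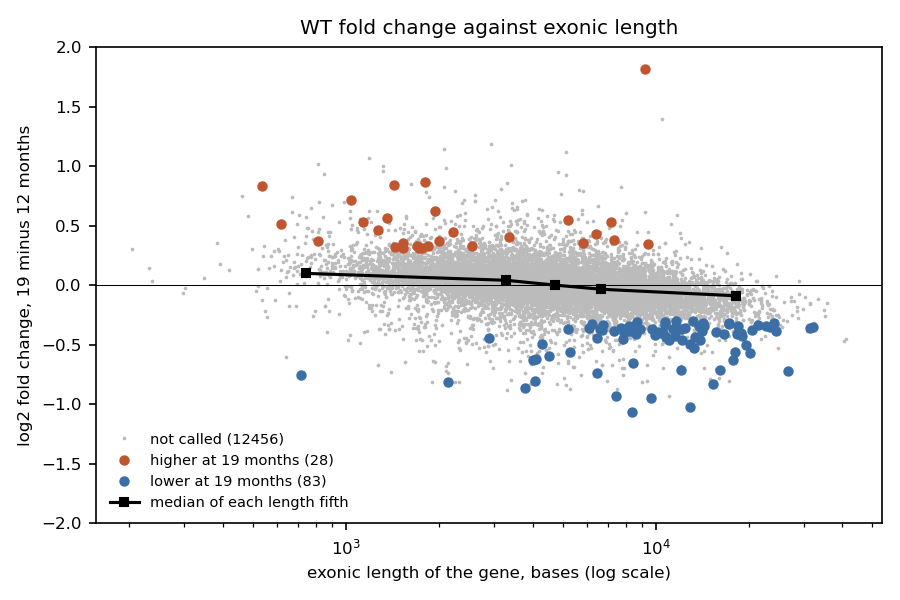
Log2 fold change (19 minus 12 months) in WT against exonic length on a log axis, for the 12567 genes with a length. Black squares join the medians of the 5 length bins, from 0.10 in the shortest to -0.09 in the longest; fallen genes (blue) lie mostly to the right and risen genes (orange) mostly to the left.

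The earlier ages, whose libraries carry other ID numbers in most cases, gave levels to set beside the change. Of the 85 fallen genes, 69 had their highest mean of the 4 WT ages at 12 months and 68 had their lowest at 19 months. Over all tested genes below 0, the 12-month mean was the highest in 39.4% and the 19-month mean the lowest in 50.4%. Of the 32 risen genes, 31 had their highest mean at 19 months (45.5% of all tested genes above 0), and 12 had their lowest at 12 months. The 12-month level entered the choice of these genes, so the counts are a description. Ccdc170 was at 1.43 ± 0.2395, 1.77 ± 0.449, 2.72 ± 0.296 and 1.49 ± 0.0958 CPM (SD, n = 5) at 3, 6, 12 and 19 months. Its 3-month and 19-month levels were near each other, with 12 months above both. Pde10a was at 102 ± 10.3, 169.8 ± 48.9, 193 ± 46.7 and 94.1 ± 12.9 CPM at those ages, again with 3 and 19 months alike. Its SD ranges at 6 and 12 months overlapped, and its log2 fold change of -1.02 was -0.63 without the libraries of ID number 3. The mean of C1qc was higher at each later age, at 6.96 ± 0.725, 7.88 ± 1.28, 10.98 ± 1.63 and 16.8 ± 3.47 CPM.

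**Figure D5:**
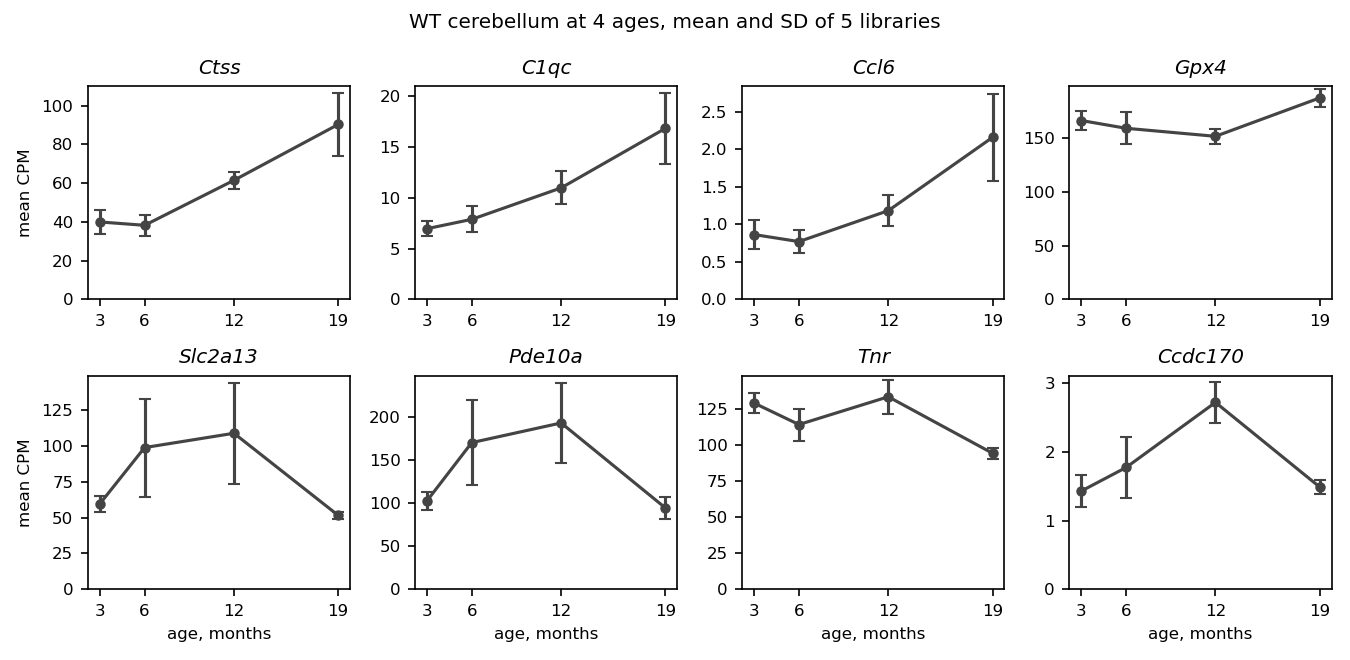
Mean CPM (points) and SD (bars) over 5 WT libraries at 3, 6, 12 and 19 months for 4 risen genes (top) and 4 fallen genes (bottom). Ctss, C1qc and Ccl6 are highest at 19 months. Slc2a13, Pde10a and Ccdc170 have their highest mean at 12 months and are near their 3-month level at 19 months. The 12-month means include the libraries of ID number 3, without which the log2 fold changes of Slc2a13 and Pde10a were -0.46 and -0.63.

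The same ages were compared in the 10 SCA6 84Q/+ libraries, which the choice of genes did not use. They share ID numbers 2 and 3 at 12 months and 9 and 12 at 19 months with WT libraries. The ID number and age can therefore not be told apart across genotypes either. Libraries with Y-linked transcripts near 0 were also fewer at 19 than at 12 months in both genotypes. No gene of 13264 tested passed the same limits there (0%, with edgeR), 1674 (12.6%) had an unadjusted p under 0.05, and DESeq2 called 68. Of the 31 risen WT genes tested in SCA6 84Q/+, 29 had the same sign and 14 an unadjusted p under 0.05, with medians of 0.40 in WT and 0.16 in SCA6 84Q/+. Over all genes above 0 in WT, 66.3% had the same sign and 10.6% an unadjusted p under 0.05 in SCA6 84Q/+. Of the 85 fallen genes, 76 had the same sign and 33 an unadjusted p under 0.05, with medians of -0.40 and -0.12. Over all genes below 0 in WT the shares were 65.5% and 14.6%. The genes were chosen by the size of their WT folds, which favours smaller folds in SCA6 84Q/+, so the medians of the genotypes are not on equal terms. The trend with transcript length ran the same way in both genotypes, and its part in these shares was not tested. The interaction of genotype and age, which tests whether the change differs, called none of 13321 genes (0%) with edgeR or with DESeq2, and 889 (6.67%) had an unadjusted p under 0.05. The smallest adjusted p was 0.712, so a difference between genotypes was not shown for any single gene.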

How the data were processed

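Whole-cerebellum poly(A) RNA was sequenced as paired-end reads. Per the labels and the study's methods, the authors checked reads with FastQC, trimmed them with Trimmomatic, aligned them to mm10 with STAR and deposited raw read counts per gene from HTSeq. For tool versions, gene annotation and strand setting, nothing is given in the sources at hand. Reads of overlapping or antisense genes may therefore have been counted together. No value was normalized before deposit.

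Groups came from the labels. The 10 WT libraries at 12 and 19 months were fitted together with edgeR 4.0.16 in R 4.3.3 (TMM scaling, quasi-likelihood F test, Benjamini-Hochberg adjustment over all 13243 genes). Calls needed both an adjusted p up to 0.05 and a log2 fold change of at least 0.3 in size. The SCA6 84Q/+ libraries and the interaction of genotype and age were fitted the same way. Printed CPM are TMM-scaled over all 40 libraries, and SE is that of the log2 fold change. Samples of a group are separate cerebella, and p-values weigh the difference between groups against the spread between these samples. Libraries that share an ID number were treated as independent.

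Gene lists, the genes named and the members were chosen with earlier results of these data known. Named genes were the called genes (mean log2 CPM of at least 1) with the 10 highest and the 10 lowest folds, up to 4 called members of each list (or its most abundant members where none was called), and the called genes of smallest adjusted p. The functional groups of called genes, the axonemal and ciliary list, and single list members given as values (Lyz2, Tyrobp, Ifitm3, Ifit1, Kl, Ttr) were added after their values were seen. Positions and exonic lengths are from GENCODE M21 (GRCm38), which matched 19575 of 21967 symbols (89.1%). Promoters (250 bases before to 50 after the start site) are RefSeq's, and motifs were searched on both strands. hexb has no entry under that spelling.

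Alternatives were DESeq2 1.42.0, limma 3.58.1 (voom, weighted by sample quality), further scalings, another filter or none, a joint fit of all groups, a replicate block, a covariate for Y-linked transcripts, and each library left out. Those on gene length, the choroid plexus score and ID number 3 were chosen after seeing the data. On simulated counts for the 13243 genes of the WT comparison, the fit called 85 of 100 genes changed by 0.6 and 99 of 100 changed by 1 on the log2 scale, with 3 false calls. The simulated libraries were drawn independently, without differences tied to ID number, transcript length or tissue composition. False calls from such differences are therefore not measured by it.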

Additional observations from a re-analysis of the deposited data

Results flagged for a closer look

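Of 328 groups of 5 libraries examined, 19 held 1 library whose gap to the nearest other exceeded Dixon's limit, where chance gives about 1 in 20. Among WT libraries at 19 months, replicate 1 had the lowest total, 38782900 counts, and the highest list scores for complement (0.71), disease-associated microglia (0.72) and reactive astrocytes (0.48). Replicate 4 stood highest for endothelial cells (0.23), the glucocorticoid response (0.72) and Glul, the glutamine synthetase of glia, at 2002 CPM. Replicate 2 stood highest in Cox8a, at 68.1 CPM.

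At 12 months, replicate 1 was lowest for the Y-linked list (-7.37), with Ddx3y at 0.690 CPM and Eif2s3y at 0.420 CPM. Replicate 2 was lowest for Dnali1 (2.63 CPM), Frmpd2 (1.88 CPM) and the antigen presentation gene H2-Aa (2.59 CPM). Replicate 3 was lowest for Cbln3, a granule cell gene (997 CPM), and the antigen presentation gene H2-D1 (97.8 CPM). The granule cell list was highest in replicate 2 (0.15).

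In SCA6 84Q/+ at 12 months, replicate 2 was highest for the interferon response (1.92) and replicate 5 for the unfolded protein response (0.26).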

How the results depend on the processing

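Of 117 genes, 32 higher and 85 lower, DESeq2 called 481 (176 higher, 305 lower; 115 shared), voom 391 (133, 258; 111 shared) and the joint fit 484 (201, 283; 106 shared). Upper quartile scaling gave 63 (18, 45), library totals 66 (24, 42), no filter 34 (4, 30), no minimum fold 184 (57 higher), the Y-linked covariate 25 (5, 20) and length offsets 10 (2, 8). The fits without ID number 12, without ID number 3, and with the length slope or the choroid plexus score as covariate gave 0 each. Both covariates were computed from the same libraries and differ between the ages with little or no overlap. With 1 library left out, the count ran from 0 to 570, higher genes from 0 to 206 and lower genes from 0 to 364. Direction was kept by all 117 genes with a value in each of these fits except under the length slope covariate, where 115 kept it and Ncam1 turned to 0.0012. The 117 genes were chosen on the same libraries, so their kept direction is a description. In SCA6 84Q/+, DESeq2 called 68 and the Y-linked covariate and length offsets 1 each, and leaving out 1 library gave 0 to 5. The interaction called 0 in every fit, with 1 library left out too.

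Deviations of same-numbered replicates had correlations of -0.02 to 0.13 over 5 numbers, 2 of 5 over 0.1. The labels do not say that these numbers pair mice. A replicate block called 128 genes (36 higher, 92 lower; 76 shared with the 117) in WT and 0 in SCA6 84Q/+ and in the interaction.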
